A study of Homo sapiens with 16 samples.

Results

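The genes followed here are 10 known targets of the transcription factor p53, measured in premalignant human breast cells: TP53I3, MDM2, SESN1, ZMAT3, RRM2B, FAS, BTG2, PLK2, PLK3 and TP53INP1. CDKN1A, the best known p53 target, was left out of the group and is given only for comparison. The rule picks the genes by symbol, with earlier results of these data known, and each was found once among the 78894 genes of the count table. All 10 passed the filter on low counts, as did 16790 genes in all.

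The cells were MCF10DCIS.com, a line derived from the breast epithelial line MCF10A that models ductal carcinoma in situ. Every group shared 1 PCSK5-/- single-cell clone, to which a V5-tagged, doxycycline-regulated PCSK5 allele had been added back, so each allele was represented by 1 polyclonal line. The alleles were wildtype (WT), M452I and T288P, and the remaining group was the T288P line given 250 ng/ml recombinant mature GDF11 throughout (T288P+GDF11). All groups were grown in 3D on matrigel with 5 ng/ml EGF. Doxycycline at 1 µg/ml was present in every well after day 4, and RNA was taken from 4 wells per group on day 8. PCSK5 is a secreted protease that cleaves precursor proteins, GDF11 among them, and mature GDF11 is a TGF-β family ligand that signals through SMAD2 and SMAD3. The comparisons therefore ask whether the alleles differ in their effect on the transcriptome, and what added mature ligand does in cells carrying T288P.

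p53 is held at a low level in unstressed cells by the ubiquitin ligase MDM2, itself a p53 target, and accumulates after DNA damage and other stress. It then binds paired decamer elements near its targets, whose products arrest the cell cycle, repair DNA, handle oxidants or trigger cell death. In basal breast epithelium the relative TP63 binds many of the same elements, and several of these genes also respond to growth factor and stress signals that do not pass through p53.

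Library depth lay between 28452772 and 50760462 counts, with 21777 to 25335 genes detected. Counts of the 10 genes ran from 261 to 6657 per library. For the genes with the fewest counts, such as SESN1 and BTG2, counting error is not small beside the spread between wells. The epithelial genes EPCAM (105 to 140 CPM, counts scaled to a library total of 1000000) and KRT5 (1660 to 2606 CPM) were present in every library. Of the listed fibroblast genes, COL3A1 and LUM were at 0 in all 16, COL1A2 in 15 and PDGFRB in 14. DCN was at 0 in 6 libraries and reached 1.24 CPM. COL1A1 was present in every library, at 3.95 CPM or more with a median of 5.36 CPM. CD68, listed as an immune marker, ran from 98.4 to 230 CPM, and PTPRC did not exceed 0.241 CPM. PCSK5 reads do not separate the edited gene from the addback, nor the alleles from each other. The PCSK5 level ran from 33.1 to 57.9 CPM in WT, 25.6 to 66.8 in M452I, 26.4 to 56.5 in T288P and 25.3 to 49.3 in T288P+GDF11. One well, M452I replicate 4, stood apart: its ribosomal protein genes held 8.63% of counts, the smallest value of any library, and it was the highest or lowest of its group for more genes than any other library. T288P replicate 1 was the next most often extreme, the highest of its group for 31.4% of genes and the lowest for 30.7%. T288P+GDF11 replicate 2 came close to it, at 28.1% and 32.7%. M452I replicate 4 and T288P replicate 1 are called the outlying wells below. Values without both of them are given for many of the results they change, but not for all. Levels below are CPM scaled by trimmed mean of M-values (TMM). Being from bulk RNA, they cannot tell fewer cells of a kind from less RNA per cell.

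Sequences that match all or part of the known p53 consensus are shown first. The genes were grouped by symbol, not by these sequences. They are known p53 targets, however, so more matches among them than over all windows may be built into their choice. Promoter windows from 250 bases before to 50 bases after a RefSeq transcript start (GRCh38.p14) were held for 8 of the 10 genes, all but RRM2B and TP53INP1, and gave 16 windows because several genes have more than 1 start. They were searched on both strands for the p53 consensus, a pair of adjoining 10-base half-sites of which 3 of the 20 bases could mismatch while the core C and G of each were kept. A match lay in 4 windows of 3 genes, MDM2, FAS and SESN1, and the MDM2 windows with a match hold the same site. Across all 35116 windows in the table, 392 held one (1.12%). A match describes letters only and was not tested as a binding site. Each line below gives the element in capitals with its flanks in lower case, on the strand of the gene.
MDM2: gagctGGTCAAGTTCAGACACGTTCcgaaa
FAS: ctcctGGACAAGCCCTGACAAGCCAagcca
SESN1: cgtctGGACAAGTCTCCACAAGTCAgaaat
PLK2: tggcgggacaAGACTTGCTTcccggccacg

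The MDM2 element, at chr12:68808923-68808942, begins 94 bases before an internal transcript start and falls in an intron, the place of the gene's second promoter. It had 2 mismatches. The FAS element at chr10:88991309-88991328, also with 2 mismatches, lies 122 bases before a start, in sequence annotated as exon of another transcript. The SESN1 element, on the minus strand at chr6:109009018-109009037, lies 49 bases before an internal start within an intron and had 3 mismatches, the most allowed. PLK2 held no full element. It held 1 exact half-site, shown in capitals, on the minus strand at chr5:58460209-58460218. This lies 132 bases before the RefSeq start, in sequence annotated as exon of the gene in GENCODE. Half-sites of this kind were in 6.63% of all windows. The windows of TP53I3, ZMAT3, BTG2 and PLK3 held neither, which says nothing of elements elsewhere in these genes.

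With GDF11 added to T288P cells, 3 of the 10 genes passed the test (edgeR's quasi-likelihood test with Benjamini-Hochberg adjustment over all 16790 genes, called at 0.05). TP53I3 and RRM2B rose and PLK2 fell. Among all genes tested, 12.9% were called in this comparison, 5.07% higher and 7.88% lower, and the 3 of 10 are read against that share. The median log2 change of the 10 genes was 0.07, beside -0.01 over all genes tested. They did not move one way: 5 had a log2 change above 0 and 5 below it.

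**Figure D1:**
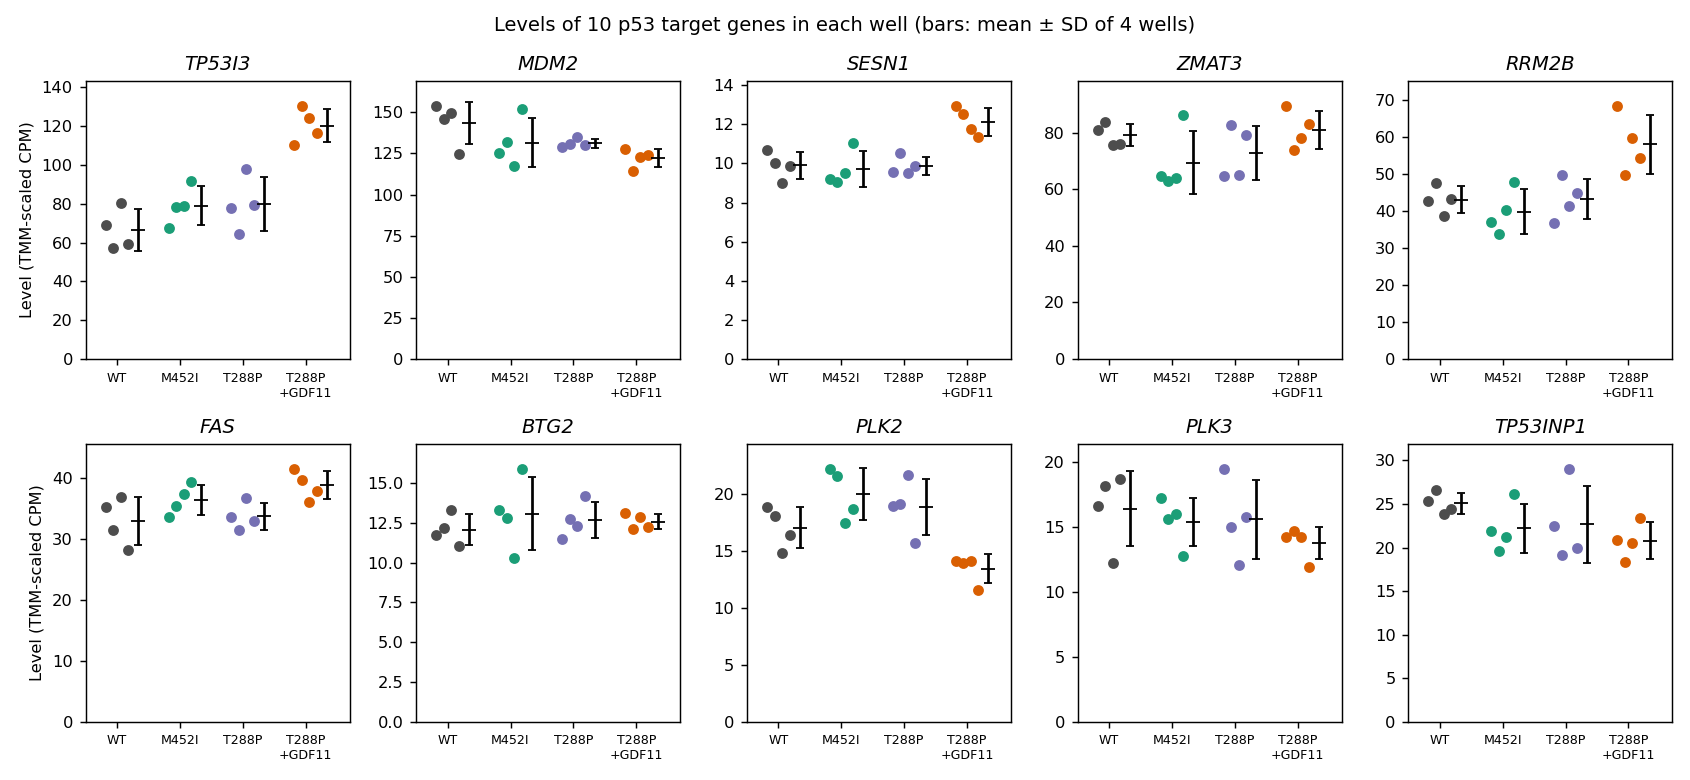
Level of each gene (TMM-scaled CPM, vertical axis starting at 0) in every well of the 4 groups; points are wells and bars are the mean ± SD of 4 wells. The T288P+GDF11 wells of TP53I3, between 110 and 130 CPM, lie above all 12 wells without GDF11, and those of PLK2, between 11.6 and 14.1 CPM, lie below all 12.

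TP53I3 (ENSG00000115129, chr2:24077433-24085861, minus strand, GRCh38) encodes a quinone oxidoreductase that generates reactive oxygen species in p53-induced cell death. Its level was 69.1, 57.0, 80.5 and 59.5 CPM in the WT wells, 67.3, 78.3, 79.1 and 91.7 in M452I, 77.7, 64.5, 98.1 and 79.3 in T288P, and 110, 130, 124 and 117 in T288P+GDF11. The 3 groups without GDF11 overlapped one another, and every GDF11 well was above all of them. The group mean went from 79.9 ± 13.8 CPM in T288P to 120 ± 8.68 with GDF11 (SD, n = 4 each), a fold of 1.51. The log2 change was 0.59 with SE 0.13 and edgeR adjusted p = 0.00609. It was called in all 24 alternative settings, leave-one-out fits included. A small part of the TP53I3 exons, 3.46% of the bases, overlaps FAM228B on the other strand. FAM228B itself went from 3.90 to 6.56 CPM (log2 change 0.75, edgeR adjusted p = 0.0120), and whether strand was used in counting is not given in the sources used here.

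RRM2B (ENSG00000048392, chromosome 8) encodes the p53-inducible small subunit of ribonucleotide reductase, which supplies deoxynucleotides for repair and for mitochondrial DNA outside S phase. Its wells held 42.7, 47.6, 38.6 and 43.3 CPM in WT, 37.2, 33.8, 40.3 and 48.0 in M452I, 36.9, 49.76, 41.4 and 45.0 in T288P, and 68.4, 49.82, 59.9 and 54.4 in T288P+GDF11. The lowest GDF11 well thus sat just above the highest well without it, and the other three stood clear. The mean rose from 43.3 ± 5.46 to 58.1 ± 7.99 CPM (SD, n = 4 each), 1.34-fold, with a log2 change of 0.43, SE 0.12 and edgeR adjusted p = 0.0271. This call rested on single wells. Without T288P replicate 1 the edgeR adjusted p was 0.0955, without T288P replicate 3 it was 0.0672, without T288P+GDF11 replicate 1 it was 0.105 and without T288P+GDF11 replicate 3 it was 0.0721.

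PLK2 (ENSG00000145632, chr5:58453982-58460260, minus strand) encodes a polo-like kinase of centriole duplication and checkpoint signalling that is also an early response gene of serum. It held 18.8, 18.1, 14.8 and 16.3 CPM in WT, 22.2, 21.6, 17.4 and 18.7 in M452I, 19.0, 19.1, 21.6 and 15.6 in T288P, and 14.1, 14.0, 14.1 and 11.6 in T288P+GDF11. All 4 GDF11 wells were below the lowest well without it, and replicate 4 was the lowest of them. The mean fell from 18.8 ± 2.45 to 13.4 ± 1.25 CPM (SD, n = 4 each), 1.40-fold lower, with a log2 change of -0.48, SE 0.12 and edgeR adjusted p = 0.0139. The call held in all 24 alternative settings, with an adjusted p of up to 0.0488. PLK3 (ENSG00000173846, chr1:44800225-44805990, plus strand), a related stress-responsive kinase, had wells of 12.1 to 19.5 CPM in T288P and 11.9 to 14.7 with GDF11. These overlapped, and its log2 change of -0.18 (SE 0.15) was not called (edgeR adjusted p = 0.472).

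SESN1 (ENSG00000080546, chr6:108986437-109094819, minus strand) encodes a sestrin, a stress protein that restrains mTORC1 and helps regenerate peroxiredoxins. It was the lowest of the 10 in CPM, at 10.7, 10.0, 9.02 and 9.85 in WT, 9.23, 9.03, 9.50 and 11.0 in M452I, 9.56, 10.5, 9.50 and 9.88 in T288P, and 12.9, 12.5, 11.8 and 11.3 in T288P+GDF11. Here too every GDF11 well was above all 12 others, with the GDF11 minimum of 11.3 close to the M452I maximum of 11.0. Against T288P the log2 change was 0.30 with SE 0.11, and it missed the threshold (edgeR adjusted p = 0.0704). It passed in 3 of the 24 alternatives: DESeq2 (adjusted p = 0.0251), a stricter count filter (0.0440), and edgeR without M452I replicate 4 (0.0469).

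MDM2 (ENSG00000135679, chr12:68808176-68850686, plus strand), the ligase that degrades p53, held 154, 146, 150 and 125 CPM in WT, 125, 132, 117 and 152 in M452I, 129, 131, 135 and 130 in T288P, and 128, 115, 123 and 124 in T288P+GDF11. The T288P and T288P+GDF11 wells did not overlap, but they were separated by about 1 CPM and the WT wells overlapped both. The log2 change with GDF11 was -0.10 with SE 0.09 (edgeR adjusted p = 0.484). The element printed above for MDM2 thus stood at a gene whose log2 change lay between -0.23 and 0.01 in all 6 comparisons of groups.

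Of the death and autophagy genes, FAS (ENSG00000026103, chr10:88990582-89015785, plus strand), the receptor for FAS ligand, had wells of 31.5 to 36.8 CPM in T288P and 36.1 to 41.5 with GDF11. The groups overlapped at their edges, and the log2 change of 0.20 (SE 0.09) was not called (edgeR adjusted p = 0.153). TP53INP1 (ENSG00000164938, chromosome 8), a nuclear body and autophagy protein that promotes p53 activity, ran from 19.2 to 29.02 CPM in T288P and from 18.3 to 23.4 with GDF11. T288P replicate 3 accounted for the upper end, and the log2 change was -0.12 with SE 0.13 (edgeR adjusted p = 0.557).

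ZMAT3 (ENSG00000172667, chr3:179017223-179072279, minus strand) encodes a zinc finger RNA-binding protein that regulates splicing and RNA stability. Its wells held 64.6 to 82.8 CPM in T288P, as 2 low and 2 high wells, and 73.7 to 89.3 with GDF11. The log2 change was 0.15 with SE 0.11 (edgeR adjusted p = 0.390). BTG2 (ENSG00000159388, chr1:203305491-203309602, plus strand), an antiproliferative partner of the CCR4-NOT deadenylase and another early response gene, was the closest to no difference. It averaged 12.7 ± 1.13 CPM in T288P and 12.6 ± 0.480 with GDF11 (SD, n = 4 each), a log2 change of -0.01 with SE 0.12.

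Across the group, 5 of the 10 genes had GDF11 wells that did not overlap the T288P wells: TP53I3, RRM2B and SESN1 above, MDM2 and PLK2 below. Over all genes tested, 22.0% did not overlap in this comparison. Against the 12 wells without GDF11 as 1 range, TP53I3, RRM2B, SESN1 and PLK2 stood outside the range and the other six did not. Over all genes tested, 11.6% stood outside it.

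**Figure D2:**
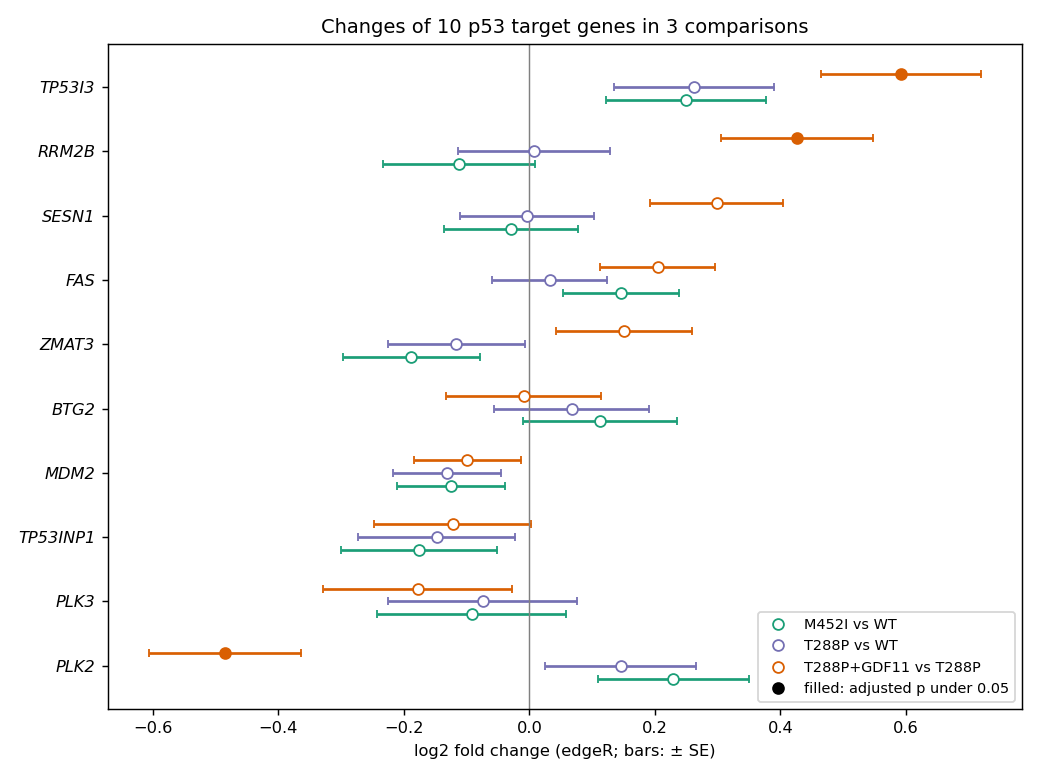
log2 fold change (horizontal axis, edgeR, bars ± SE) of the 10 genes for each allele against WT and for added GDF11 within T288P; filled points passed an adjusted p of 0.05. The only filled points are TP53I3 at 0.59, RRM2B at 0.43 and PLK2 at -0.48, all in the comparison with GDF11.

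The GDF11 wells were also set against WT and M452I. These comparisons share the same 4 T288P+GDF11 wells with the first, so they are not separate evidence. They also differ from it in the allele and line. Against WT, 4 of the 10 genes were called beside 28.9% of all genes tested: TP53I3 (log2 change 0.85, SE 0.13, edgeR adjusted p = 0.000131), RRM2B (0.43, SE 0.12, adjusted p = 0.0120) and SESN1 (0.29, SE 0.11, adjusted p = 0.0450) higher, and PLK2 (-0.34, SE 0.12, adjusted p = 0.0418) lower. Wells did not overlap for 5 genes, these and TP53INP1, beside 35.1% of all genes. TP53I3 kept its call in each of the 24 alternatives, and RRM2B lost it only without T288P+GDF11 replicate 1 (edgeR adjusted p = 0.0524).

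The SESN1 and PLK2 calls against WT were fragile. With no low-count filter both were lost (edgeR adjusted p = 0.147 and 0.138). SESN1 was also lost with the replicate block (edgeR adjusted p = 0.0668). PLK2 was also lost with limma-voom (adjusted p = 0.0519) and with edgeR after the stricter filter (0.0524). SESN1 lost its call without T288P replicate 3 (edgeR adjusted p = 0.0520), T288P+GDF11 replicate 1 (0.119), 2 (0.0736) or 3 (0.0720), or WT replicate 2 (0.0662), 3 (0.0995) or 4 (0.0713). PLK2 lost it without M452I replicate 1, 2 or 3 or T288P replicate 1 or 2 (edgeR adjusted p of 0.0556 to 0.0659), without any 1 T288P+GDF11 well (0.0619 to 0.125), or without WT replicate 1 (0.157), 2 (0.136) or 4 (0.0770). In the other direction, MDM2 (log2 change -0.23, edgeR adjusted p = 0.0519) and FAS (0.24, adjusted p = 0.0617) lay just outside the threshold. MDM2 passed with DESeq2 (adjusted p = 0.0316), limma-voom (0.0497) and edgeR on 2 groups only (0.0332), and without M452I replicate 4 (0.0168) or WT replicate 4 (0.0303). FAS passed with DESeq2 (0.0419) and the stricter count filter (0.0298), and without M452I replicate 1 (0.0454), 2 (0.0494) or 4 (0.0445), T288P replicate 1 (0.0464) or 2 (0.0449), or WT replicate 1 (0.0467) or 3 (0.0234). Both also passed without M452I replicate 4 and T288P replicate 1 together (0.0130 and 0.0409). TP53INP1 (log2 change -0.27, edgeR adjusted p = 0.114) passed with edgeR on 2 groups only (0.0395). The number of genes called against WT accordingly ran from 1, without T288P+GDF11 replicate 1, to 6, without M452I replicate 4. It was 2 without T288P+GDF11 replicate 2 or 3 or WT replicate 2.

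Against M452I, 4 genes were called beside 21.2% of all genes tested. TP53I3 (log2 change 0.61, edgeR adjusted p = 0.00361), RRM2B (0.55, adjusted p = 0.00507) and SESN1 (0.32, adjusted p = 0.0384) were higher, and PLK2 (-0.57, adjusted p = 0.00381) was lower. The same 4 were the ones whose wells did not overlap, beside 18.8% of all genes. SESN1 lost its call without M452I replicate 1 (0.0893), 2 (0.103) or 3 (0.0793), or T288P+GDF11 replicate 1 (0.108), 2 (0.0621) or 3 (0.0701). It also lost it with edgeR on 2 groups only (adjusted p = 0.0746), no low-count filter (0.109) and the replicate block (0.0591). ZMAT3, not called at a log2 change of 0.22 (edgeR adjusted p = 0.150), passed without M452I replicate 4 (0.00673).

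Between the alleles themselves, none of the 10 genes was called. In M452I against WT, 0 of 10 passed with edgeR, beside 0.0238% of all genes called. An unadjusted edgeR p under 0.05 was found for 0 of 10, beside 1058 of all 16790 genes tested. The log2 changes ran from -0.19 (ZMAT3) to 0.25 (TP53I3), and the lowest edgeR adjusted p was 0.812. In T288P against WT, the counts were again 0 and 0 of 10, beside 0.0417% of all genes called and 1425 with an unadjusted p under 0.05. The changes ran from -0.15 (TP53INP1) to 0.26 (TP53I3), with a lowest edgeR adjusted p of 0.595. M452I against T288P also gave 0 and 0 of 10, beside 0.00596% of all genes called and 366 with an unadjusted p under 0.05. The changes there ran from -0.12 (RRM2B) to 0.11 (FAS). DESeq2 also called 0 of 10 in each of these 3 comparisons.

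Wells of the 10 genes overlapped in every allele comparison. Over all genes tested, 4.09%, 5.04% and 1.20% did not overlap for M452I against WT, T288P against WT and between both mutants. With shares this small, overlap in all 10 genes does not set them apart. With SEs of 0.09 to 0.15 on the log2 scale, these tests leave room for modest differences and do not show that the alleles act alike. TP53I3 gives the clearest case. Its WT mean was 66.5 ± 10.7 CPM, its M452I mean 79.1 ± 9.96 and its T288P mean 79.9 ± 13.8 (SD, n = 4 each), differences of about the size of the spread between wells.

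The outlying M452I well bore on this group of genes. M452I replicate 4 was the highest of its 4 wells for 8 of the 10 genes and the lowest for PLK3, while 40.8% of all genes tested had their highest M452I well there. Relative to the mean of the other M452I wells, its median log2 deviation was 0.29 over the 10 genes and 0.07 over all genes. ZMAT3 shows it best, at 64.5, 63.0 and 63.9 CPM in M452I replicates 1 to 3 and 86.2 in replicate 4, above even the WT wells of 75.7 to 83.6. When M452I replicate 4 was left out, ZMAT3 was at a log2 change of -0.31 against WT (edgeR adjusted p = 0.107). With T288P replicate 1 left out as well, it was called lower in M452I (-0.31, edgeR adjusted p = 0.0497), the only call of the 10 genes between alleles in any setting. In that same setting 640 genes were called in M452I against WT in place of 4. CDKN1A in this well was low, at 197 CPM against 351 to 382 in the other M452I wells, and TP63 was high, at 47.5 CPM against 15.4 to 17.5.

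**Figure D3:**
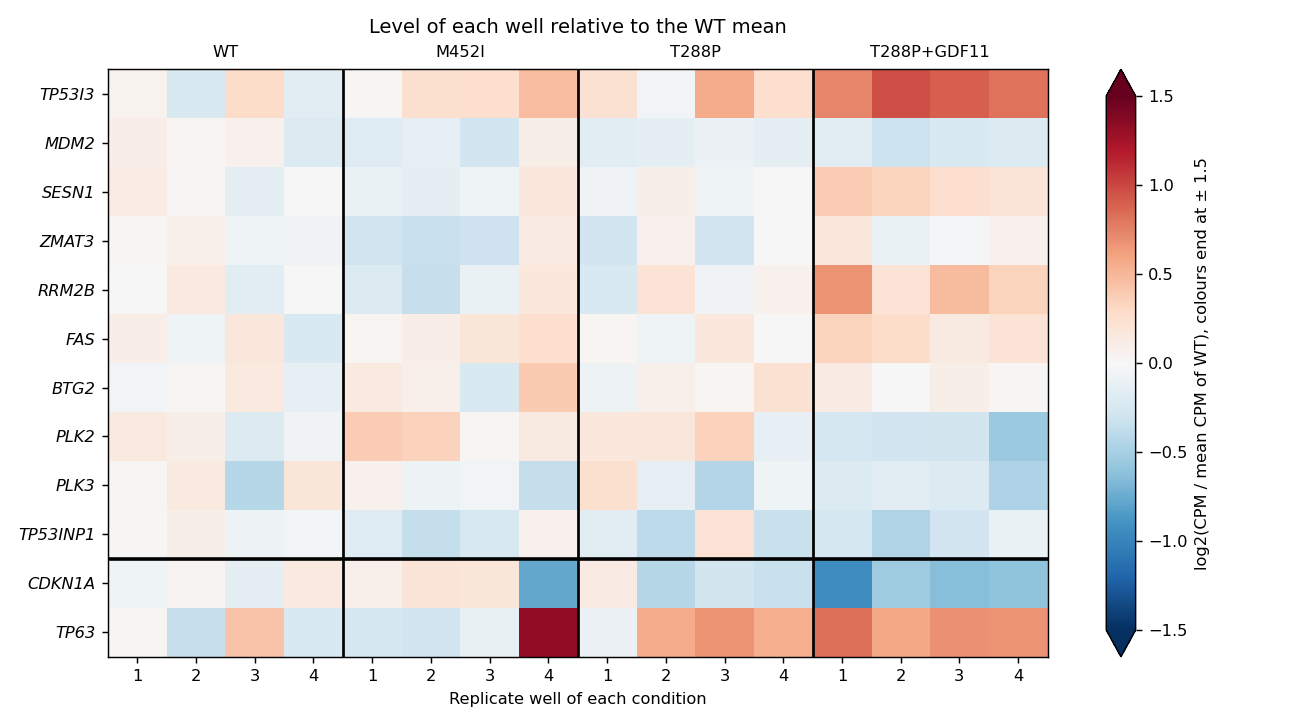
log2 ratio of each well's CPM to the WT mean (colour, ending at ± 1.5) for the 10 genes and, below the line, CDKN1A and TP63, in the 4 wells of each group. TP53I3 is red in all 4 T288P+GDF11 columns and CDKN1A blue, while M452I replicate 4 differs from its neighbours for most genes.

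Levels per kilobase of exon allow a rough ranking of the genes against each other. The length is the union of all annotated exons, 13284 bases for MDM2 and 2312 for TP53I3, and can exceed that of any 1 transcript. In WT wells, TP53I3 stood first at 28.8 ± 4.61 CPM per kb, followed by MDM2 at 10.8 ± 0.974 (SD, n = 4 each). ZMAT3 (8.20 ± 0.399), RRM2B (7.76 ± 0.658) and FAS (7.75 ± 0.921) came next and lay within one another's spread. PLK3 (4.72 ± 0.840), TP53INP1 (4.42 ± 0.211) and BTG2 (4.38 ± 0.348) formed another set that did not differ beyond its spread. PLK2 (3.57 ± 0.377) and SESN1 (1.93 ± 0.135) were the lowest, each below its neighbour by more than the SD. CDKN1A, at 109 ± 9.72 CPM per kb, was above every one of them. With GDF11, TP53I3 reached 52.0 ± 3.76 CPM per kb and CDKN1A 68.6 ± 8.17, and RRM2B at 10.5 ± 1.44 lay within its own SD of MDM2 at 9.21 ± 0.420.

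CDKN1A, the cyclin-dependent kinase inhibitor p21, held 363, 248, 275 and 264 CPM in T288P and 173, 231, 214 and 219 with GDF11. The GDF11 wells were the lower and the groups did not overlap. Its log2 change of -0.46 with SE 0.17 was not called (edgeR adjusted p = 0.0801). It was called with DESeq2 (adjusted p = 0.0487), with edgeR on 2 groups only (0.0276), without M452I replicate 4 (0.00555) and without both outlying wells (0.0181). It was also called against WT (-0.67, adjusted p = 0.00651) and M452I (-0.64, adjusted p = 0.0136). The last of these was lost without M452I replicate 1 (0.0526), 2 (0.0663) or 3 (0.0586) or T288P+GDF11 replicate 1 (0.0525), and with edgeR on 2 groups only (0.0530). Between alleles CDKN1A was not called, but without both outlying wells it was lower in T288P than in WT (log2 change -0.35, edgeR adjusted p = 0.0334) and higher in M452I than in T288P (0.50, adjusted p = 0.00257). For CDKN1A the wells left out were the highest of T288P (363 CPM) and the lowest of M452I (197 CPM). Leaving them out by itself moves the group means in these directions.

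The upstream genes were read from a list of 13 p53 relatives and regulators, of which 11 were tested. With GDF11 against T288P, 3 were called, beside 12.9% of all genes tested. CHEK1, a kinase that phosphorylates p53 after replication stress, rose. USP7, which deubiquitinates MDM2 and p53, and EP300, an acetylase and coactivator, fell. USP7 fell by 0.34 on the log2 scale (edgeR adjusted p = 0.00831) and kept its call in every alternative. CHEK1 rose by 0.42 (edgeR adjusted p = 0.0247) and lost its call without T288P replicate 3 (0.0683) or 4 (0.0566) or T288P+GDF11 replicate 2 (0.0505) or 3 (0.0785). EP300 fell by 0.50 (edgeR adjusted p = 0.0349) and lost it without T288P replicate 1 (0.0956), 3 (0.0844) or 4 (0.0562), T288P+GDF11 replicate 1 (0.0510), 2 (0.0805) or 3 (0.0721), or WT replicate 2 (0.050005). The EP300 call was also lost without both outlying wells (edgeR adjusted p = 0.0712) and with edgeR on 2 groups only (0.0515). TP63 held 17.7, 27.7, 30.0 and 27.4 CPM in T288P and 33.3, 28.2, 30.4 and 30.1 with GDF11, and was not called (log2 change 0.25, SE 0.31, edgeR adjusted p = 0.650). In fits to all 16 libraries, TP63 was not called in any of the other comparisons. Its GDF11 wells, at 28.2 to 33.3 CPM, did not overlap the WT wells, at 14.9 to 25.4 CPM. With edgeR on these 2 groups only, TP63 was called higher than in WT (log2 change 0.70, adjusted p = 0.00134). Without M452I replicate 4 it was called higher with GDF11 than in WT (0.69, edgeR adjusted p = 0.00209) and M452I (0.91, adjusted p = 0.000470). Without T288P replicate 1 as well, it was also called higher in T288P than in WT (0.59, edgeR adjusted p = 0.0184) and lower in M452I than in T288P (-0.81, adjusted p = 0.00205). For TP63 the wells left out were the lowest of T288P (17.7 CPM) and the highest of M452I (47.5 CPM). Leaving them out by itself moves the group means in these directions.

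A further 27 p53 targets, CDKN1A among them, were all tested. With GDF11 against T288P, 1 rose, 4 fell and 22 were not called, beside 5.07% of all genes tested that rose and 7.88% that fell. The median log2 change of the 27 was -0.07. The 4 that fell were SFN, the checkpoint protein 14-3-3σ (590 ± 151 to 317 ± 43.9 CPM; log2 change -0.89, edgeR adjusted p = 0.00318), SESN2, the sestrin related to SESN1 (19.3 ± 5.49 to 10.1 ± 1.25 CPM; -0.93, adjusted p = 0.00736), PHLDA3, an inhibitor of AKT (-0.57, adjusted p = 0.0210), and PERP, a desmosome and cell death protein (-0.48, adjusted p = 0.0297). XPC, which recognises damaged DNA in nucleotide excision repair and was named after its value was seen, rose from 13.2 ± 3.12 to 19.6 ± 2.62 CPM (SD, n = 4; log2 change 0.56, edgeR adjusted p = 0.0429). SFN and SESN2 kept their calls in every alternative.

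The remaining 3 did not. PHLDA3 lost its call without T288P replicate 1 (edgeR adjusted p = 0.108) or 3 (0.0623) or T288P+GDF11 replicate 1 (0.0706), 3 (0.0604) or 4 (0.0553). PERP lost it without T288P replicate 1 (0.124) or 3 (0.0606) or T288P+GDF11 replicate 1 (0.105), 2 (0.0527) or 3 (0.0811), and with the replicate block (0.0517). XPC lost it without T288P replicate 1 (0.140) or 3 (0.0996), without any 1 T288P+GDF11 well (0.0506 to 0.139), or without WT replicate 1, 2 or 3 (0.0503 to 0.0522). With M452I replicate 4 and T288P replicate 1 both left out, 2 of the 27 rose and 7 fell. The shares of 5.07% and 7.88% are from the fit to all 16 libraries and are not those of this setting. Over all genes, 2174 were called in that fit and 1391 to 3027 under the alternatives other than leaving out 1 library.

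**Figure D4:**
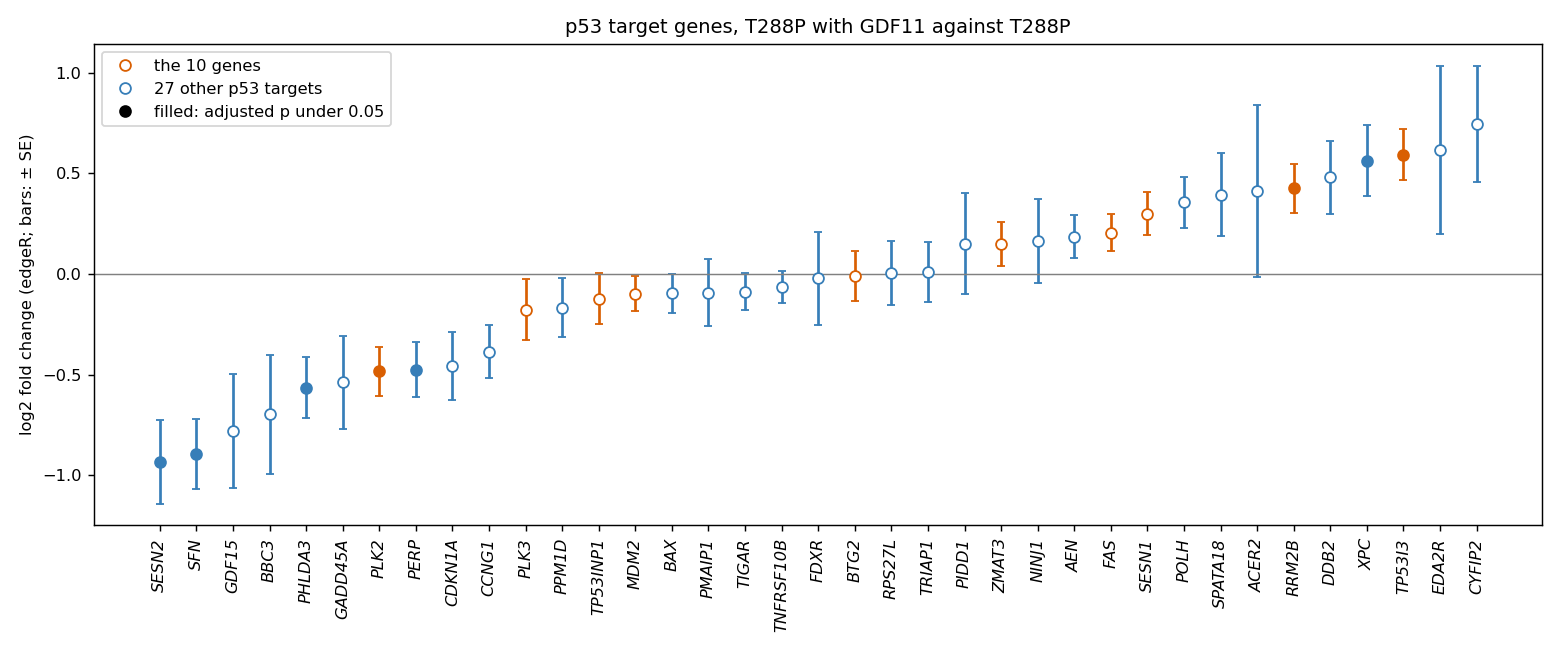
log2 fold change with GDF11 against T288P (vertical axis, edgeR, bars ± SE) of the 10 genes and the 27 other p53 targets, ordered by size; filled points passed an adjusted p of 0.05. Both sets lie on both sides of 0, with SESN2 at -0.93 and SFN at -0.89 the lowest and TP53I3 at 0.59 among the highest.

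Between alleles, 0 of these 27 targets were called with edgeR in any comparison, and 1, 2 and 0 had an unadjusted p under 0.05 for M452I and T288P against WT and for M452I against T288P. Over all 16790 genes tested, 1058, 1425 and 366 had an unadjusted p under 0.05 in the same order. Leaving out M452I replicate 4 and T288P replicate 1 changed the calls among the 27 to 1 higher, 5 lower and 9 higher in the same order. Calls over all genes changed there too, from 4, 7 and 1 to 640, 698 and 2420. Against WT, the GDF11 wells had 4 of the 27 higher and 9 lower, beside 28.9% of all genes tested called in either direction. Against M452I they had 2 higher and 8 lower, beside 21.2% of all genes. Without both outlying wells the counts of the 27 were 5 higher and 9 lower against WT, and 6 higher and 12 lower against M452I. The shares above are not those of this setting, where 6941 of all 16790 genes were called against M452I in place of 3558. Against WT, 3881 to 6249 were called under the alternatives other than leaving out 1 library. In the fit to all 16 libraries, XPC and POLH, a polymerase that copies past lesions, were higher against both WT and M452I. In that fit DDB2, a damage sensor, and ACER2, a ceramidase, were higher against WT. These 4 were also named after their values were seen. Against WT, DDB2 lost its call without T288P+GDF11 replicate 1 (edgeR adjusted p = 0.0978) or 3 (0.113) or WT replicate 2 (0.105) or 4 (0.0716). ACER2, at under 1 CPM on average in every group, lost it without any 1 of 8 libraries (0.0514 to 0.125). With no low-count filter, DDB2 (edgeR adjusted p = 0.0510) and ACER2 (0.0957) also lost their calls. Against M452I, POLH lost its call without T288P+GDF11 replicate 1 (0.0640), and XPC without M452I replicate 1 (0.0838), 2 (0.103) or 3 (0.0797) or T288P+GDF11 replicate 1 (0.104) or 3 (0.0537).

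BTG2, PLK2 and PLK3 are also early response genes, and of these only PLK2 was called with GDF11 against T288P. Of 15 other immediate early genes, 0 rose, 7 fell and 8 were not called in that comparison, beside 7.88% of all genes tested that fell. Their median log2 change was -0.33, beside -0.01 over all genes. FOSB fell by 0.80 (edgeR adjusted p = 0.000821), NR4A1 by 1.27 (0.00221), EGR1 by 0.68 (0.00540) and DUSP1 by 0.71 (0.00829). These 4 kept their calls in every alternative. The summed level of the 15 genes was 2001 to 2459 CPM in the T288P wells and 1764 to 2073 CPM with GDF11. Of 10 genes that follow RNA quality or nuclear RNA, 4 fell (NEAT1, MT-ND1, KCNQ1OT1 and MT-ND4), with sums of 25634 to 31282 CPM in T288P and 24480 to 27505 CPM with GDF11. NEAT1 lost its call without T288P+GDF11 replicate 2 (edgeR adjusted p = 0.0510) or 3 (0.0567), KCNQ1OT1 without T288P replicate 1 (0.0778) or T288P+GDF11 replicate 3 (0.0536), MT-ND1 without T288P replicate 4 (0.0658), and MT-ND4 without any 1 of 14 libraries (up to 0.158). With no low-count filter, MT-ND1 (edgeR adjusted p = 0.0571) and MT-ND4 (0.105) also lost their calls. MT-ND4 further lost its call with relative log expression scaling (edgeR adjusted p = 0.0507), the stricter filter (0.0539) and the replicate block (0.0604). The part of either list in the changes of TP53I3, RRM2B and PLK2 was not tested.

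For the called genes, the genes with the most similar pattern over all 16 libraries were found by the root mean square (RMS) difference of centred log2 CPM. PLAU, the urokinase plasminogen activator, was nearest to TP53I3 at an RMS difference of 0.12, beside an RMS of 0.36 for the variation of TP53I3 itself, and the metalloproteinase MMP28 followed at 0.13. COL17A1, a hemidesmosome collagen, and CEP290, a centrosome and cilium protein, were nearest to RRM2B at 0.10 each, beside 0.26 for RRM2B. For PLK2 the nearest were GLMP, a lysosomal membrane protein, and EPHX1, an epoxide hydrolase, both at 0.14 beside 0.26 for PLK2. Part of this likeness is shared library and group structure, and nothing about shared control follows from it.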

How the data were processed

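Gene-level raw counts from poly(A)-selected RNA-seq (paired 150-base reads) were deposited by the authors as 1 table for 16 libraries, 4 wells in each of 4 groups. Per the submitters' processing notes, HISAT2, StringTie 2.2.1 and GRCh38 were used; how counts were made and whether strand was used is not given in the sources used here. From these counts, TMM-scaled CPM were computed, and edgeR 4.0.16 (quasi-likelihood F test, robust, R 4.3.3) was fitted to all 16 libraries after a filter at a minimum count of 10, with 6 comparisons adjusted by Benjamini-Hochberg over 16790 genes. SE is the log2 change over the square root of F. Wells came from 1 line per allele, so p-values measure the spread between wells and not between lines. No 2 wells were duplicates: chi-square per degree of freedom between wells of a group was 11.5 to 134 over 24 pairs. The edgeR script was tested on simulated data.

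The alternatives were DESeq2 1.42.0, limma-voom 3.58.1, edgeR with relative log expression scaling, no filter, a stricter filter (50 counts in 4 libraries), 2 groups only, a replicate block, each library left out in turn, and M452I replicate 4 and T288P replicate 1 left out together. The genes, the lists and these 2 wells were chosen with earlier results of these data known. All 10 genes, CDKN1A and TP63 were named, while 1 further gene of the rule is not reported here, with up to 4 called genes of smallest adjusted p per list and comparison and the 2 genes nearest in pattern to each called gene. Exon lengths, places and overlaps came from GENCODE release 29, and promoter sequences from RefSeq (GRCh38.p14).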

Additional observations from a re-analysis of the deposited data

Results flagged for a closer look

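In 3 of the 40 sets of 4 wells (10 genes in 4 groups), 1 well lay farther from the others than the critical value of Dixon's test allows, and chance flags about 1 in 20 such sets. ZMAT3 was at 86.2 CPM in M452I replicate 4, against 63.0 to 64.5 CPM in the other M452I wells. PLK2 was at 11.6 CPM in T288P+GDF11 replicate 4, against 14.0 to 14.1 CPM in the other wells of that group. PLK3, the related kinase, was at 11.9 CPM in the same T288P+GDF11 replicate 4, against 14.2 to 14.7 CPM.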

How the results depend on the processing

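No called change of the genes named here turned its direction under any alternative, and the scalings tried moved the median of all genes by at most 0.02 on the log2 scale. Without M452I replicate 4 and T288P replicate 1 together, 1 of the 10 genes was called in M452I against WT. In T288P+GDF11 against WT, 2 were called with no low-count filter, and 1 to 6 when 1 library was left out in turn. Leaving out libraries gave 2 to 4 called in T288P+GDF11 against T288P and 3 to 5 against M452I. Over all genes, calls in M452I against WT were 4 with edgeR, 30 with DESeq2, 0 with 2 groups only and 640 without both wells. In T288P against WT they were 7, 80 with DESeq2, 11 with no filter, 1 with the block and 698 without both wells. In T288P+GDF11 against T288P they were 2174 and 1391 with no filter. In M452I against T288P they were 1, 6 with DESeq2, 0 with 2 groups only and 2420 without both wells. In T288P+GDF11 against WT they were 4846, 3675 to 5864 when 1 library was left out and 3881 to 6249 under the other alternatives. In T288P+GDF11 against M452I they were 3558, 2261 with 2 groups only and 6941 without both wells. Leaving out 1 library gave 1 to 9, 1 to 29, 1028 to 3435 and 1 to 1 in the first 4 of these, and 1661 to 6578 in the last. The cause was not tested. Same-numbered wells did not deviate together more than others (24 pairs, correlation -0.197 to 0.174, beside -0.359 to 0.246 for 72 pairs of different number). The numbers were not used as pairs in the main fit, and a weak shared effect could escape this check. With the replicate block, 3 of the 10 genes were called in T288P+GDF11 against T288P, 3 against WT and 3 against M452I, where SESN1 lost both of its calls, and 0 in each comparison of alleles.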

Other observations

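Relatives and partners of these genes were read from a list. In this list of 13 paralogs and partners, 12 of them tested, 1 rose and 2 fell with GDF11 against T288P. Of all genes tested, 5.07% rose and 7.88% fell. RRM2, the S phase small subunit of ribonucleotide reductase and the counterpart of RRM2B, fell from 77.5 ± 17.2 to 51.2 ± 2.61 CPM (SD, n = 4 each; log2 change -0.60, edgeR adjusted p = 0.0106), while RRM2B rose. The RRM2 call was lost without T288P replicate 1 (edgeR adjusted p = 0.0539). SESN2 also fell, while SESN1 was not called (log2 change 0.30). FADD, the adaptor of the FAS receptor, rose (log2 change 0.40, edgeR adjusted p = 0.0425), but 54.9% of its exon bases overlap a gene on the other strand. Its call was lost without any 1 of the T288P+GDF11 wells (0.0505 to 0.112) or of T288P replicates 1 to 3 (0.0611 to 0.118). It was also lost without M452I replicate 4 and T288P replicate 1 together (edgeR adjusted p = 0.0740), with no low-count filter (0.0763) and with the replicate block (0.0523).

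Of 12 cell cycle genes that p53 lowers through CDKN1A, 0 rose and 2 fell with GDF11 against T288P, beside 5.07% and 7.88% of all genes tested. The median log2 change of the 12 was -0.18, beside -0.01 over all genes tested. CDC20, the activator of the anaphase-promoting complex, fell by 1.29 (edgeR adjusted p = 0.00609) and TOP2A, the mitotic topoisomerase, by 0.37 (0.00808). Both calls held in every alternative. CDKN1A, the inhibitor through which p53 lowers this list, had a log2 change of -0.46 in the same comparison and was not called.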
